A study of Mus musculus with 23 samples.

Results

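Inhibitory interneurons are commonly told apart by a small set of genes, and 7 of these were followed here across 3 brain regions of mice on different diets: Pvalb, Calb2, Sst, Vip, Cck, Reln and Lhx6. They come from a fixed list of symbols, and their measurements are the entries of the normalized expression table whose transcript identifier carries one of these symbols in the array annotation. All 7 of the 7 listed genes had an entry, among 31395 entries with 19972 gene symbols in the whole table. The files held 8 identifiers for the 7 genes, and the eighth, a further Lhx6 transcript, did not pass the filter on dim probes and was not well above background on any of the 23 arrays. The study compared brain regions that govern feeding between mice with and without access to an energy-dense food. Female C57BL/6 mice, 5 weeks old at the start and housed individually, received standard chow (SC mice) or a free choice of chow and a chocolate mixture (CM mice) for 8 weeks, and then went through a battery of behavioral tests of 11 days, during which the SC mice were also offered the chocolate mixture. FC stands below for the frontal cortex, HT for the hypothalamus and ST for the striatum. RNA of these tissues, from 4 SC mice (L52, L54, L56 and L58) and 4 CM mice (O52, O54, O56 and O58) was measured on one-color Agilent arrays. Each diet had 4 arrays in every region, except that the CM mice had 3 in the FC, where O52 has no array.

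Interneurons release GABA and shape the activity of nearby excitatory neurons, and their subtypes differ in the calcium-binding proteins, peptides and transcription factors they carry. In the cortex, cells born in the medial ganglionic eminence depend on the transcription factor Lhx6 and mostly carry parvalbumin or somatostatin, whereas cells born in the caudal eminence often carry vasoactive intestinal peptide, calretinin, cholecystokinin or reelin. None of these genes is restricted to interneurons throughout the brain: excitatory neurons of the cortex and thalamus also make cholecystokinin, calretinin is abundant in midline thalamus and in the olfactory bulb, and vasoactive intestinal peptide marks cells of the suprachiasmatic nucleus. Arrays of whole tissue cannot tell fewer cells of a type from less RNA per cell.

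Values below are log2 intensities after background correction and quantile normalization over all arrays, and levels are compared only within a gene, since probes differ in brightness. The number of spots well above background was between 36432 and 42261 per array. In the FC it went with diet and slide, from 36432 to 38472 on the SC arrays and from 41481 to 42261 on the CM arrays, and no member spot was saturated. All 7 members were well above background on all 23 arrays. The arrays lay on 3 slides, and slide and diet were entangled. The 3 CM arrays of FC were on slide 3, the 4 CM arrays of ST on slide 1 and the 4 CM arrays of HT on slide 2. SC arrays of FC were on slides 1 (3 arrays) and 2 (1 array), those of ST on slides 1, 2 and 3 (1, 2 and 1 arrays), and those of HT on slides 2 (1 array) and 3 (3 arrays). No slide therefore held FC arrays of both diets.

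On markers of each region and of its neighbors, 5 arrays were picked as standing apart, by reading the values and not by a fixed rule. The FC array of L54 was highest among the FC arrays for 6 of 6 olfactory bulb markers, with a mean of 11.66 against 6.87 to 7.54 on the others, and a summed level of 14.78 against 10.36 to 10.97. Eomes, a factor of olfactory bulb projection neurons, was 11.36 on it and 4.52 to 5.25 on the other FC arrays, and Th, the brightest of the list, was 13.27 against 9.58 to 10.09. The same array was highest for 5 of 5 red blood cell entries and lowest for 6 of 8 cortex entries. In the ST, the array of L54 was highest for 6 of 8 cortex marker entries (mean 9.62, the others 6.97 to 8.94) and lowest for 10 of 12 striatum entries. The ST array of O58 was lowest for 6 of 8 cortex entries (mean 6.97) and highest for 5 of 5 choroid plexus markers, with Ttr, the brightest of that list, at 18.21 against 10.61 to 14.16. The ST array of L52 was highest for 11 of 12 hypothalamus entries, with the orexin precursor Hcrt at 15.45 against 6.73 to 10.92, and also for 7 of 13 thalamus entries (mean 9.60) and 7 of 8 entries of the suprachiasmatic nucleus. In the HT, the array of L58 was highest for 9 of 12 hypothalamus entries (mean 12.52, the others 9.16 to 11.84) and lowest for 12 of 13 thalamus entries (mean 10.17, the others 11.08 to 11.65). Further HT arrays differed but were not among the 5. That of L54 was highest for 10 of 12 striatum entries (mean 9.83) and for 5 of 5 red blood cell entries, that of O58 had a striatum mean of 9.19, and the rest lay between 8.63 and 8.91. Hcrt was 13.24 and 13.05 on these arrays and 16.03 to 16.73 on the rest. The HT array of L56 had the highest cortex mean. By the gap to the other arrays of their group, 6 arrays stood out, each on 1 list: the HT arrays of L54 and O58 on striatum markers, that of L56 and the ST array of O58 on cortex markers, the FC array of L54 on olfactory bulb markers, and the FC array of L52 on pituitary markers. On that last list the 3 CM arrays of FC were higher still (means of 8.21, 8.40 and 8.03 against 7.85 for L52 and 7.16 to 7.25 for the other SC arrays), so it separated the FC arrays by diet and slide. Of the pituitary list, Prl and Cga had no entry that passed the filter, and Gh was well above background on only 3 of the 7 FC arrays. The ST arrays of L52 and L54 and the HT array of L58 did not stand out by the gap to their group.

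The sample labels name the HT tissue as thalamic, and its markers were of both kinds. Prkcd, of the thalamus list, averaged 13.10 in SC and 13.63 in CM mice on the HT arrays. In any FC or ST group it averaged at most 9.91. Hcrt averaged 15.81 in SC and 15.51 in CM mice on the HT arrays and at most 9.81 in any FC or ST group, and Slc17a6, the glutamate transporter of thalamic and hypothalamic neurons, averaged 12.97 and 13.26 there and at most 9.41 elsewhere. Among the FC arrays, the striatum markers also varied: their mean was 10.62, 10.33 and 10.46 for L56, L58 and O58, 10.01 for L54, and 8.79, 8.92 and 9.10 for L52, O54 and O56. The part of these neighboring tissues in the values of the interneuron genes was not tested. Calls between regions and between diet effects are given below with the slide as a block, and also without the 5 arrays, an alternative chosen after the data had been seen.

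**Figure D1:**
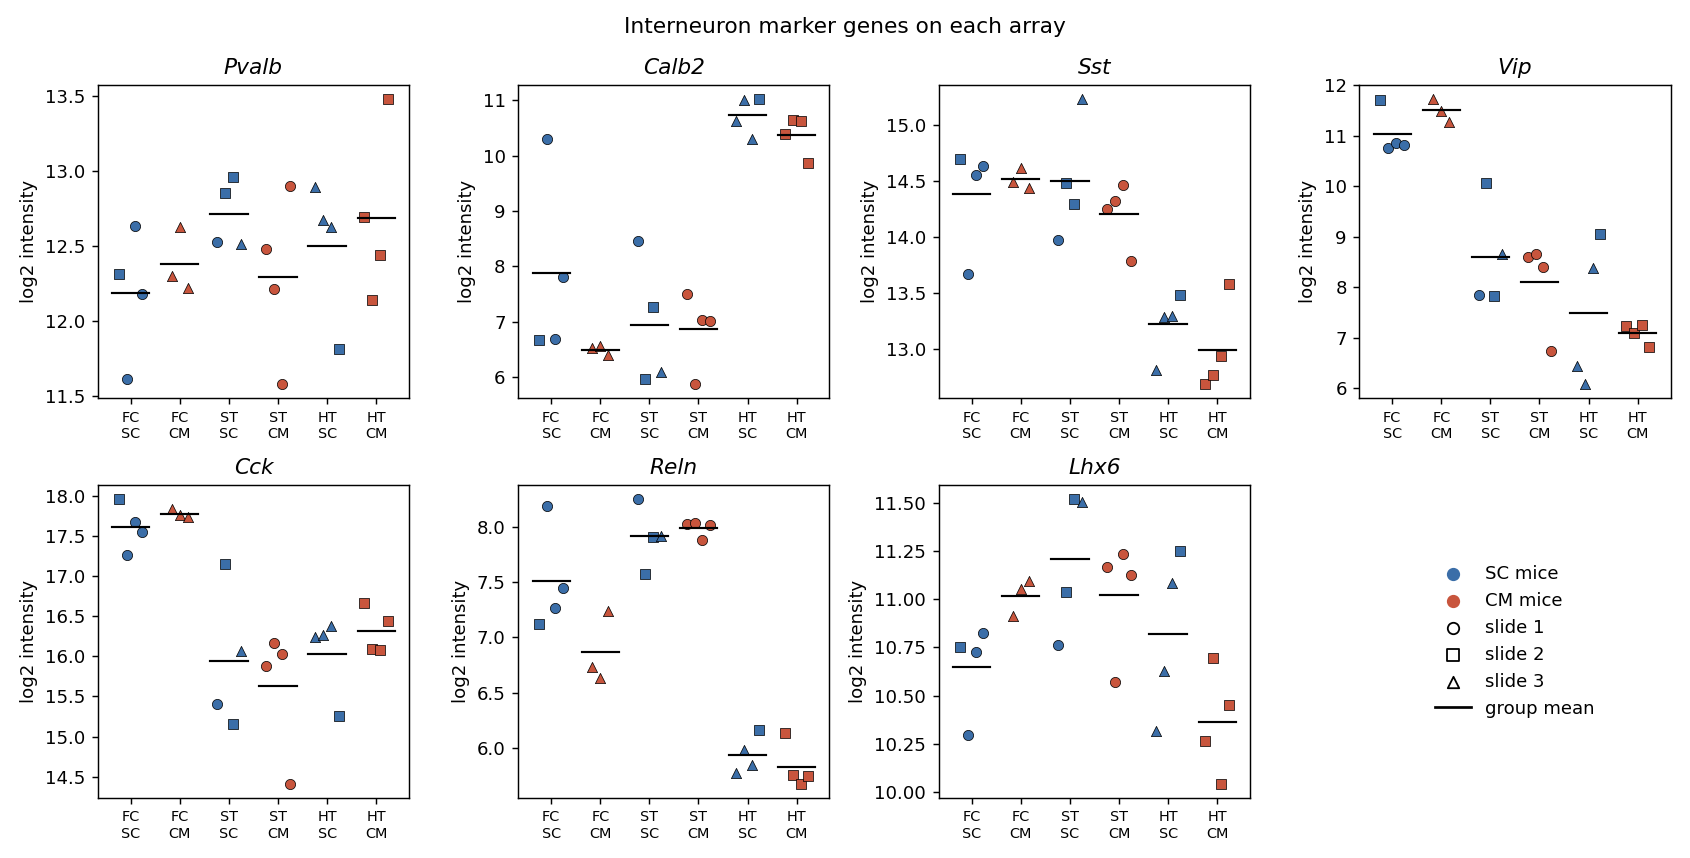
Log2 intensity (vertical axis) of the 7 interneuron marker genes on each of the 23 arrays, by region and diet; points are arrays, shaped by slide, and lines are group means. Calb2 was between 9.87 and 11.02 on the HT arrays, Vip between 10.75 and 11.72 on the FC arrays, and Reln between 5.68 and 6.16 on the HT arrays.

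The calcium-binding members differed from each other in how they varied over regions. Pvalb encodes parvalbumin, a calcium buffer of fast-spiking interneurons, and was measured by 2 probes on chromosome 15 (mm9 chr15:78021549-78021608 and chr15:78021951-78022010). It ranged from 11.62 to 12.63 (median 12.30) over the 7 FC arrays, from 11.58 to 12.96 (median 12.52) over the 8 ST arrays and from 11.82 to 13.48 (median 12.65) over the 8 HT arrays. The 3 regions overlapped almost completely. Its log2 difference was 0.19 ± 0.25 (SE) between ST and FC, 0.24 ± 0.22 between HT and FC and 0.05 ± 0.24 between HT and ST, with adjusted p of 0.608, 0.378 and 0.866 in limma. Both probes gave the same order, with ST minus FC at 0.19 and 0.28 and HT minus FC at 0.27 and 0.38.

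Calb2 encodes calretinin, a calcium sensor and buffer. Its only probe lies at mm9 chr8:112678555-112678614, and the sequence is shown because these 60 bases are the stretch of calretinin mRNA that sets the HT apart below; it has 1 reading frame without a stop codon.
Calb2 probe: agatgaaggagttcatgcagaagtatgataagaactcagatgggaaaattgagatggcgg
In the FC, Calb2 was 6.68, 10.31, 6.70 and 7.81 in the SC mice L52, L54, L56 and L58, and 6.52, 6.56 and 6.40 in the CM mice O54, O56 and O58. In the ST it was 8.47, 5.96, 7.27 and 6.09 in the SC mice, in the same order, and 7.50, 5.88, 7.04 and 7.02 in the CM mice O52, O54, O56 and O58. On the HT arrays it was 10.62, 11.01, 10.30 and 11.02 in the SC mice and 10.39, 10.64, 10.63 and 9.87 in the CM mice. The HT arrays were all high, and they overlapped with the FC through the FC array of L54 alone, the one with high olfactory bulb markers. The second highest value outside the HT was the ST array of L52, the one with high hypothalamus, thalamus and suprachiasmatic markers. Calb2 was higher in the HT than in the FC by 3.40 ± 0.34, a 10.6-fold difference (adjusted p = 3.92e-08, higher in 7 of 7 mice). Against the ST the difference was 3.60 ± 0.36, or 12.1-fold (adjusted p = 5.85e-08, higher in 8 of 8 mice). ST and FC did not differ beyond their spread (-0.20 ± 0.38, adjusted p = 0.736). With the slide as a block the differences were 4.03 and 4.65, and without the 5 arrays 3.73 and 3.76.

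Of the peptide members, somatostatin (Sst) inhibits the release of other transmitters and hormones and is made by dendrite-targeting interneurons; its probe is at mm9 chr16:23889776-23889835 and was spotted 10 times. Sst in the FC was 14.70, 13.67, 14.56 and 14.63 in L52, L54, L56 and L58, and 14.49, 14.62 and 14.44 in O54, O56 and O58. In the ST it was 13.98, 14.49, 14.30 and 15.23 in the SC mice and 14.25, 14.32, 14.46 and 13.78 in O52, O54, O56 and O58. In the HT it was 12.82, 13.29, 13.30 and 13.48 in the SC mice and 12.69, 12.77, 12.93 and 13.58 in the CM mice. The HT arrays were the lowest and did not overlap with either of the other regions, whereas FC and ST covered nearly the same range. Sst was lower in the HT than in the FC by -1.37 ± 0.15, a 2.59-fold difference (adjusted p = 1.59e-07, lower in 7 of 7 mice), and lower than in the ST by -1.23 ± 0.16, a 2.35-fold difference (adjusted p = 2.11e-06, lower in 8 of 8 mice). ST minus FC was -0.14 ± 0.17 (adjusted p = 0.564).

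Vasoactive intestinal peptide (Vip) is released by interneurons that mostly inhibit other interneurons; its probe is at mm9 chr10:4699238-4699297. Vip in the FC was 11.70, 10.75, 10.85 and 10.82 in L52, L54, L56 and L58, and 11.72, 11.49 and 11.28 in O54, O56 and O58. In the ST it was 7.84, 10.07, 7.83 and 8.66 in the SC mice and 8.60, 8.65, 8.39 and 6.73 in the CM mice. The HT values were 6.44, 6.08, 8.38 and 9.05 in the SC mice and 7.23, 7.10, 7.25 and 6.82 in the CM mice. Every FC array was above every array of the other regions, and ST and HT overlapped widely. Within the ST, the high array was that of L54 and the low array that of O58, the arrays with the highest and the lowest cortex markers. Within the HT, the high arrays were those of L58, which had the highest hypothalamus and the lowest thalamus markers and the highest mean of the suprachiasmatic markers (8.60, the others 7.94 to 8.44; highest for 5 of 8 entries and lowest for 3), and L56, which had the highest mean of the cortex markers (7.84, the others 6.99 to 7.13). Vip was lower in the ST than in the FC by -2.85 ± 0.41, a 7.22-fold difference (adjusted p = 1.82e-05, lower in 7 of 7 mice). In the HT it was lower than in the FC by -3.86 ± 0.36, a 14.5-fold difference (adjusted p = 1.64e-08, lower in 7 of 7 mice). HT minus ST was -1.01 ± 0.38 (adjusted p = 0.0323, lower in 5 of 8 mice), which missed the threshold used for calls.

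Cholecystokinin (Cck) is a peptide of basket cells and also of many excitatory neurons; its probe is at mm9 chr9:121398943-121399002. Cck in the FC was 17.96, 17.25, 17.67 and 17.55 in L52, L54, L56 and L58, and 17.84, 17.76 and 17.73 in O54, O56 and O58. In the ST it was 15.40, 17.15, 15.15 and 16.06 in the SC mice and 15.88, 16.17, 16.03 and 14.42 in the CM mice. In the HT it was 16.23, 16.27, 16.37 and 15.25 in the SC mice and 16.66, 16.09, 16.08 and 16.44 in the CM mice. The FC arrays were the highest and did not overlap with either of the other regions, although the ST array of L54 came within 0.11 of the FC array of the same mouse. Cck was lower in the ST than in the FC by -1.90 ± 0.27, a 3.74-fold difference (adjusted p = 1.48e-05, lower in 7 of 7 mice), and lower in the HT than in the FC by -1.47 ± 0.24, a 2.78-fold difference (adjusted p = 2.17e-05, lower in 7 of 7 mice). HT minus ST was 0.43 ± 0.25 (adjusted p = 0.16). It was -0.08 without the ST array of L56 and 0.70 without that of L54.

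Vip and Cck varied together over the 8 ST arrays. From lowest to highest, the order of the arrays by the mean of the cortex markers was O58, L56, L52, O52, O56, O54, L58 and L54, and the order by Vip was the same apart from O52 and O56 changing places. Ordered by Cck, only L58 and O54 changed places. Pearson's r between Vip and Cck over these 8 arrays was 0.987; the points share 3 slides and a normalization. Over the 8 HT arrays it was -0.60, and over the 7 FC arrays 0.86.

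**Figure D2:**
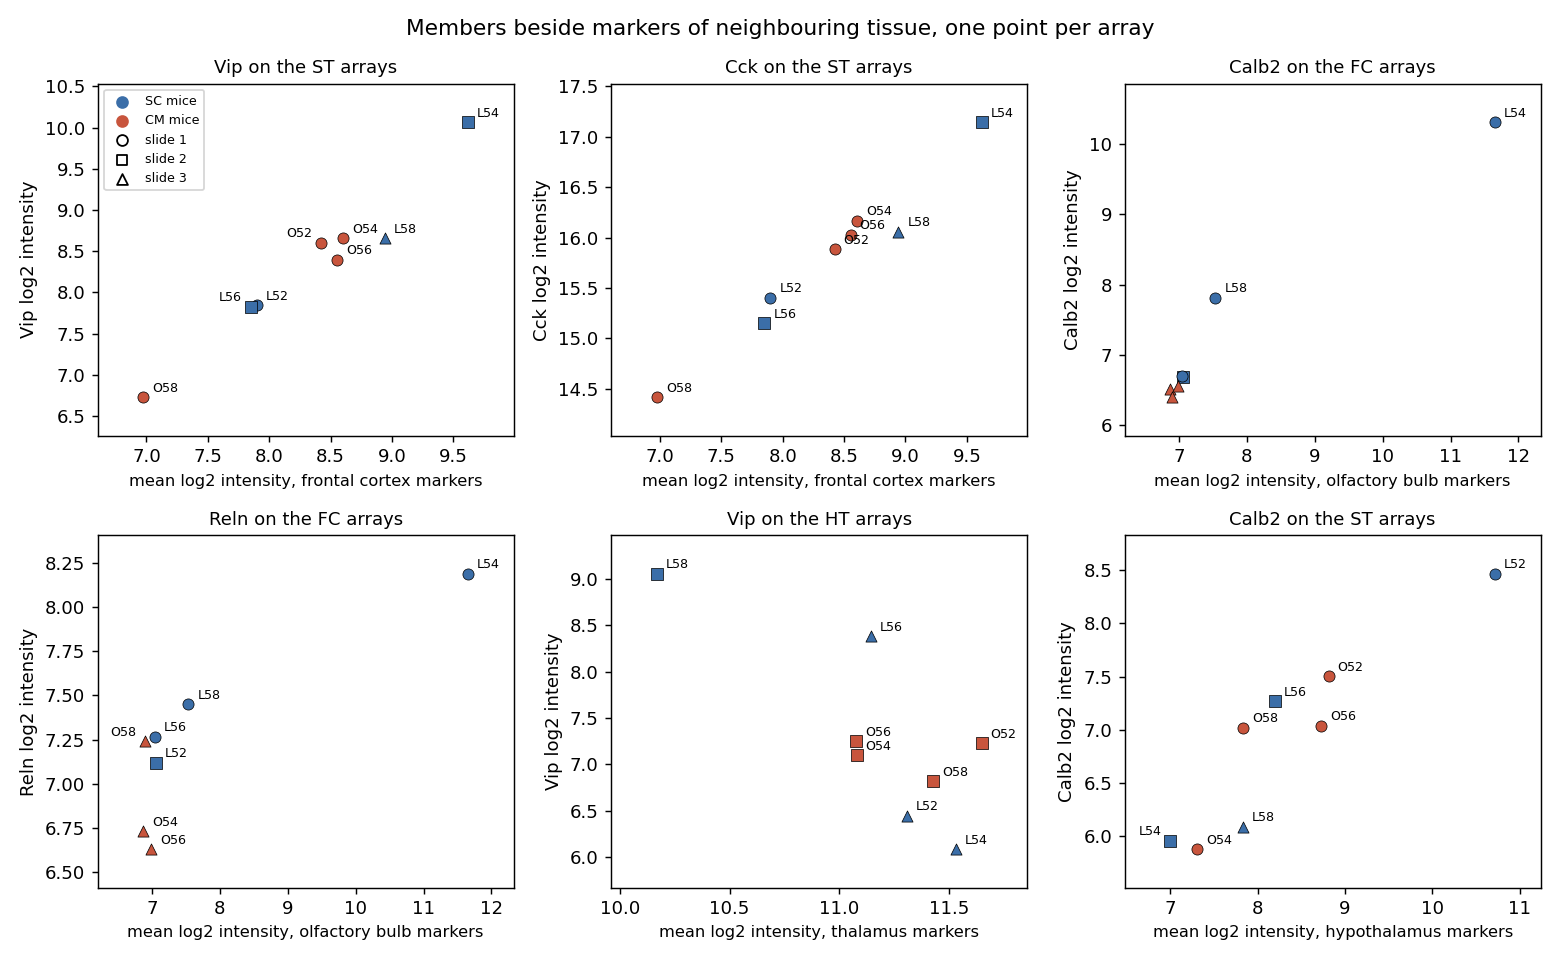
Log2 intensity of a member (vertical axis) against the mean log2 intensity of a marker list (horizontal axis), for 6 pairs of member and list; each point is an array, colored by diet and shaped by slide, and points lying close together carry no label. In the ST, Vip and Cck were highest on the array of L54 (10.07 and 17.15) and lowest on that of O58 (6.73 and 14.42), at cortex marker means of 9.62 and 6.97.

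The promoters of the peptide members were read because genes of secreted peptides are classic targets of cyclic AMP signaling. The window was the 250 bases before the start of the gene, from RefSeq (GRCm38.p6), and 6 of the 7 members had an entry; Calb2 is named only. TGACGTCA, the full cyclic AMP response element, was searched on both strands, as was TGACG, a shorter element that it contains. The full element was in 1.55% of 32851 promoters and in 1 of the 6 members, Sst. TGACG was in 17.8% of all promoters and in 3 of the 6 members, Sst, Vip and Cck, beginning 48, 79 and 47 bases before the start; the full element of Sst holds it on both strands, and the position is that on the strand shown. The shares count promoters and the members are counted as genes; the 6 members had 9 promoters, since Lhx6 had 3 and Pvalb 2, and 3 of the 9 held TGACG. Pvalb, Reln and Lhx6 held neither in this window. The sequences run 5′ to 3′ toward the start of the gene, with the element in capitals (on the opposite strand for Cck), and come from chr16:23890845-23891094 (minus strand), chr10:5638968-5639217 (plus strand) and chr9:121495695-121495944 (minus strand).
Sst promoter: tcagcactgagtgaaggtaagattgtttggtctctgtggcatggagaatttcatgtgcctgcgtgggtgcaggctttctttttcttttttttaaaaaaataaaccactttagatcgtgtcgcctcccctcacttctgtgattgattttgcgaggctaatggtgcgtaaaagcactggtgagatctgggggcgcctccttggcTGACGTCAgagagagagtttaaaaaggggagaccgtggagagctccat
Vip promoter: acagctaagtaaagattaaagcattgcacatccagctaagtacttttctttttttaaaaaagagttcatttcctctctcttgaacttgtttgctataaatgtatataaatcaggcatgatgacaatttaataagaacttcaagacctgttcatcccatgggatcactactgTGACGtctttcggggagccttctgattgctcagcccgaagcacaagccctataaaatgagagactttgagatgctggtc
Cck promoter: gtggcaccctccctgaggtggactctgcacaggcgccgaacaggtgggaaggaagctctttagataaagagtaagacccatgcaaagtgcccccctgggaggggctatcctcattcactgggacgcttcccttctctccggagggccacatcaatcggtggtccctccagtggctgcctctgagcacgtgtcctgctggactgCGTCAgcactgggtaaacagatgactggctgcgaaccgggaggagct
A match describes these letters and is no evidence of a bound factor.

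Reln encodes reelin, a large secreted glycoprotein that guides neuronal positions in development and acts on synapses in the adult. Its probe lies at mm9 chr5:21404915-21404974, and the sequence is shown because it is the stretch of reelin mRNA behind the smallest p-value among the members; it has 1 reading frame without a stop codon.
Reln probe: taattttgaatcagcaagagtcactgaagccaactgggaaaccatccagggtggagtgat
Reln in the FC was 7.12, 8.19, 7.27 and 7.45 in L52, L54, L56 and L58, and 6.73, 6.63 and 7.24 in O54, O56 and O58. In the ST it was 8.25, 7.57, 7.91 and 7.92 in the SC mice and 8.03, 8.03, 7.88 and 8.02 in the CM mice. The HT values were 5.77, 5.98, 5.85 and 6.16 in the SC mice and 6.14, 5.75, 5.68 and 5.75 in the CM mice. The HT arrays were the lowest without overlap, and the ST arrays were above all FC arrays but that of L54, which also had the high olfactory bulb markers. Reln was lower in the HT than in the ST by -2.07 ± 0.13, a 4.20-fold difference (adjusted p = 7.92e-11, lower in 8 of 8 mice), and lower than in the FC by -1.31 ± 0.12, a 2.47-fold difference (adjusted p = 1.86e-08, lower in 7 of 7 mice). The second of these was no longer 2-fold with an offset of 50 in the background correction (-0.85), which ended its call. ST minus FC was 0.77 ± 0.14 (adjusted p = 0.000243, higher in 6 of 7 mice), less than the 2-fold needed for a call. It was 0.68 ± 0.18 with the slide as a block (adjusted p = 0.0112) and 0.87 ± 0.17 without the 5 arrays (adjusted p = 0.00145). On the CM arrays alone it was 1.16 ± 0.15 and called (adjusted p = 7.41e-05), and on the SC arrays alone it was 0.37 ± 0.21 (adjusted p = 0.283). Among the CM arrays each region was on a different slide, so region and slide cannot be told apart there.

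Lhx6 encodes the LIM homeodomain factor that sets the fate of medial eminence interneurons. It was measured by 2 probes of 1 transcript (mm9 chr2:35937644-35937703 and chr2:35937470-35937529). Lhx6 in the FC was 10.75, 10.30, 10.73 and 10.83 in L52, L54, L56 and L58, and 10.91, 11.05 and 11.09 in O54, O56 and O58. In the ST it was 10.76, 11.04, 11.52 and 11.50 in the SC mice and 11.17, 10.57, 11.23 and 11.13 in the CM mice. In the HT it was 10.32, 10.63, 11.08 and 11.25 in the SC mice and 10.26, 10.69, 10.05 and 10.45 in the CM mice. The order was ST, FC, HT, with wide overlap between neighbors. Its log2 difference was 0.33 ± 0.17 for ST minus FC (adjusted p = 0.137), -0.23 ± 0.14 for HT minus FC (adjusted p = 0.191) and -0.56 ± 0.15 for HT minus ST (adjusted p = 0.00473, lower in 7 of 8 mice), the last below the 2-fold needed for a call. With the slide as a block that value was -0.71 ± 0.26 (adjusted p = 0.047), and without the 5 arrays -0.70 ± 0.22 (adjusted p = 0.0195). The probes disagreed in the comparison of HT with FC, where they gave 0.15 and -0.59, and gave -0.27 and -0.78 for HT minus ST.

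Between regions, then, the members fell into those that set the cortex apart, Vip and Cck, those that set the HT apart, Calb2, Sst and Reln, and those with no call between regions, Pvalb and Lhx6. A call in limma required both a 2-fold difference and an adjusted p below 0.01, over the mean of both diets and with adjustment over all 31395 entries. For ST minus FC, 2 of 7 members were called, Vip and Cck, where 3.82% of all entries were; 0 were higher (2.23% of all entries) and 2 lower (1.6%). An adjusted p under 0.05 alone was reached by 3 of 7 (33.9% of all entries), and an unadjusted p under 0.05 by the same 3 (42.8%), Vip, Cck and Reln. The median over the members was -0.14 against -0.01 over all entries. Without the 5 arrays the differences were -2.88 and -1.91, and with the slide as a block -3.08 and -1.56. Within slides 1, 2 and 3, ST minus FC was -2.76, -2.76 and -2.84 for Vip and -1.91, -1.81 and -1.72 for Cck. Only slide 2 held arrays of 1 diet alone in these regions. Slide 1 held SC arrays of FC and mostly CM arrays of ST, and slide 3 CM arrays of FC and an SC array of ST. On the SC arrays alone both calls were lost, at adjusted p of 0.0573 for Vip and 0.0209 for Cck, with differences of -2.45 and -1.78.

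For HT minus FC, 5 of 7 members were called, where 7.67% of all entries were: Calb2 was higher (3.76% of all entries), and Sst, Vip, Cck and Reln were lower (3.91%). The same 5 had an adjusted p under 0.05 (52.8% of all entries) and an unadjusted p under 0.05 (57.4%). The median over the members was -1.31 against 0.03 over all entries. With the slide as a block the 5 differences were 4.03, -1.54, -4.44, -1.62 and -1.13, and without the 5 arrays 3.73, -1.49, -4.08, -1.45 and -1.23, all called. Within slide 2, which held 1 FC array, they were 3.83, -1.61, -4.22, -1.85 and -1.22, and within slide 3, with 3 arrays of each region, 4.15, -1.38, -4.53, -1.48 and -1.002. Diet differed with region there: on slide 3 the FC arrays were of CM mice and the HT arrays of SC mice. On slide 2 the FC array was of an SC mouse, and the HT arrays were 1 of SC and 4 of CM mice.

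For HT minus ST, 3 of 7 members were called, where 6.38% of all entries were: Calb2 was higher (2.84% of all entries), and Sst and Reln were lower (3.54%). An adjusted p under 0.05 alone was reached by 5 of 7, Vip and Lhx6 being added (51.4% of all entries), and an unadjusted p under 0.05 by the same 5 (56.5%). The median over the members was -0.56 against 0.04 over all entries. With the slide as a block the 3 differences were 4.65, -1.60 and -1.81, and without the 5 arrays 3.76, -1.48 and -2.11, all called. Within slide 2 they were 3.89, -1.30 and -1.85, and within slide 3, which held 1 ST array, 4.55, -2.10 and -2.05. On slide 3 these arrays were all of SC mice, whereas on slide 2 the ST arrays were of SC mice and most HT arrays of CM mice. Vip moved either way with the array left out: without the ST array of L54 it was -0.72 (adjusted p = 0.0768), and on the SC arrays alone -0.91 (adjusted p = 0.399). It would be called without the ST array of L56 (-1.56, adjusted p = 0.00314), the HT array of L56 (-1.29, adjusted p = 0.00929), the HT array of L58 (-1.21, adjusted p = 0.0099) or the ST array of O58 (-1.16, adjusted p = 0.00924). On the CM arrays alone, where each region was on a different slide, it was called too (-1.14, adjusted p = 0.00743). The 3 region comparisons share arrays, so their counts are not independent. The p-values measure the spread between arrays of different mice.

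**Figure D3:**
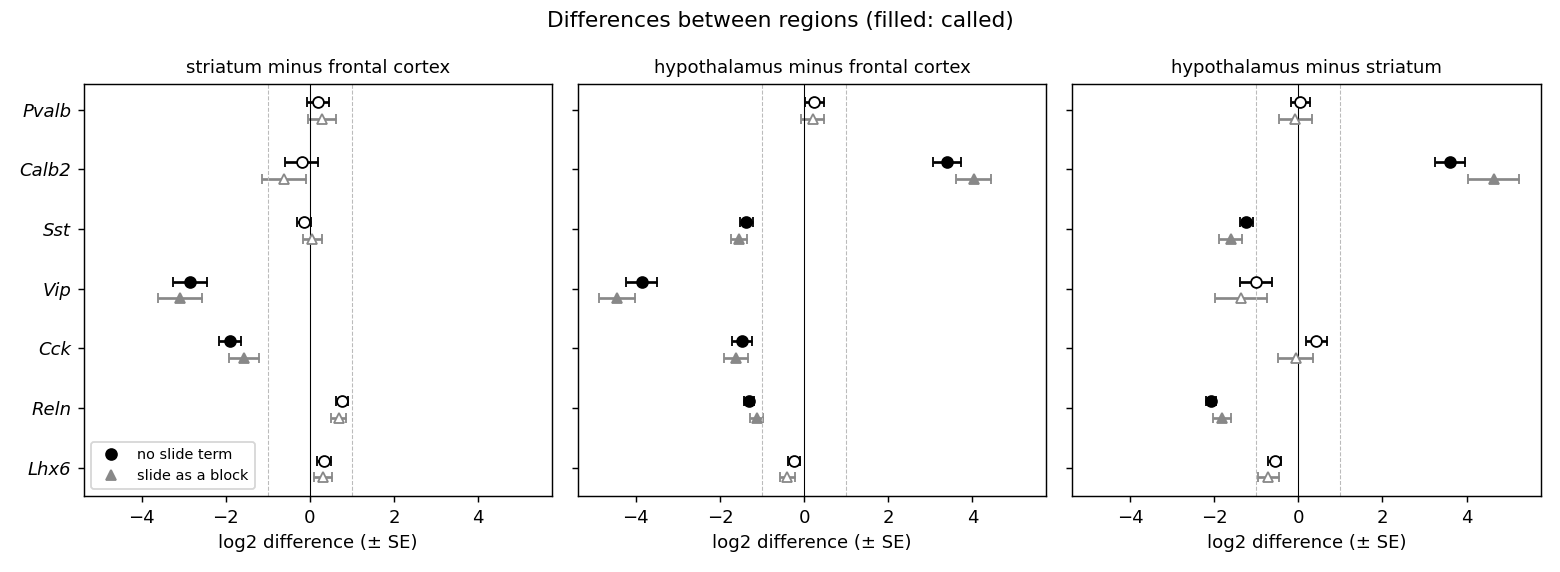
Log2 differences between regions for the 7 members (horizontal axis, error bars 1 SE), from the model with no slide term (circles) and with the slide as a block (triangles); filled symbols are called and dashed lines mark a 2-fold difference. Calb2 lay at 3.40 and 3.60 in the comparisons with HT, and Vip at -2.85 and -3.86 in those with FC.

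Wider lists of genes around the members were counted in the same fit, and genes other than the largest in each direction were named after their values had been seen. The lists do not tell whether interneurons or other cells, such as striatal projection neurons, carried these genes in a region. This was not tested. The counts below stand against the shares called among all entries: 2.23% higher and 1.6% lower in ST than in FC, 3.76% and 3.91% in HT than in FC, and 2.84% and 3.54% in HT than in ST. The medians of all entries were -0.01, 0.03 and 0.04. Of 11 general genes of GABA neurons, 3 were higher in ST than in FC and 0 lower, with a list median of 0.30: the transcription factor Dlx6 by 1.64 ± 0.17, the GABA-synthesizing enzyme Gad2 by 1.31 ± 0.16 and the vesicular GABA transporter Slc32a1 by 1.23 ± 0.11. In HT against FC, 0 were higher and 1 was lower, the noncoding RNA Dlx6os1 by -1.72 ± 0.22. HT against ST gave 0 higher and 3 lower, with Dlx6os1 at -2.03 ± 0.24, Dlx6 at -1.86 ± 0.15 and Dlx5 at -1.12 ± 0.17. Gad1, the other enzyme that makes GABA, was 0.85 ± 0.15 in ST minus FC, under the 2-fold threshold.

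Genes of the medial eminence lineage differed in both directions. Of 24 genes, 23 had entries (26 in all). In ST against FC, 5 were higher and 3 lower. Of the higher, Lhx8, a factor of cholinergic neurons, and Nkx2-1, the factor upstream of Lhx6, were well above background on 4 and 2 of the 7 FC arrays and on all ST and HT arrays, so no size is given for them. The others were the tachykinin precursor Tac1 by 2.48 ± 0.27, Pthlh by 1.21 ± 0.23 and Syt2 by 1.02 ± 0.13, against the somatostatin-like peptide Cort by -1.69 ± 0.31, Crhbp by -1.52 ± 0.31 and Satb1 by -1.17 ± 0.24. In HT against FC, 5 entries were higher (3.76% of all entries), Nkx2-1 among them, and 7 were lower (3.91%), with Cort first (-3.64 ± 0.27). HT against ST gave 3 higher, led by the potassium channel Kcnc2 of fast-spiking cells (1.51 ± 0.12), and 6 lower, led by neuropeptide Y (Npy, -2.66 ± 0.18).

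For the caudal eminence lineage, 18 of 20 genes had entries (19 in all). In ST against FC, 3 were higher and 3 lower: the enkephalin precursor Penk, which striatal projection neurons make, by 2.83 ± 0.38, the acetylcholine-synthesizing enzyme Chat by 2.75 ± 0.28 and Prox1 by 1.16 ± 0.18, against corticotropin-releasing hormone (Crh) by -1.38 ± 0.19, Nr2f1 by -1.16 ± 0.11 and the serotonin receptor subunit Htr3a by -1.08 ± 0.22. Chat marks cholinergic neurons, whose factor Lhx8 stands in the medial list. The lineage of the cells that carried Chat in the ST was not tested. In HT against FC, 5 were higher (3.76% of all entries), with Sncg first (3.53 ± 0.28), and 2 were lower (3.91%), Htr3a (-1.29 ± 0.19) and the cannabinoid receptor Cnr1 (-1.18 ± 0.14). HT against ST gave 5 higher, led by Sncg (2.50 ± 0.29), and 3 lower, led by Penk (-3.45 ± 0.35). Htr3a, carried by most Vip cells of the cortex, was called lower in both comparisons with the FC, as Vip was. The list medians were -0.20 (medial) and -0.11 (caudal) for ST minus FC, 0.15 and 0.05 for HT minus FC, and -0.14 and 0.04 for HT minus ST.

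**Figure D4:**
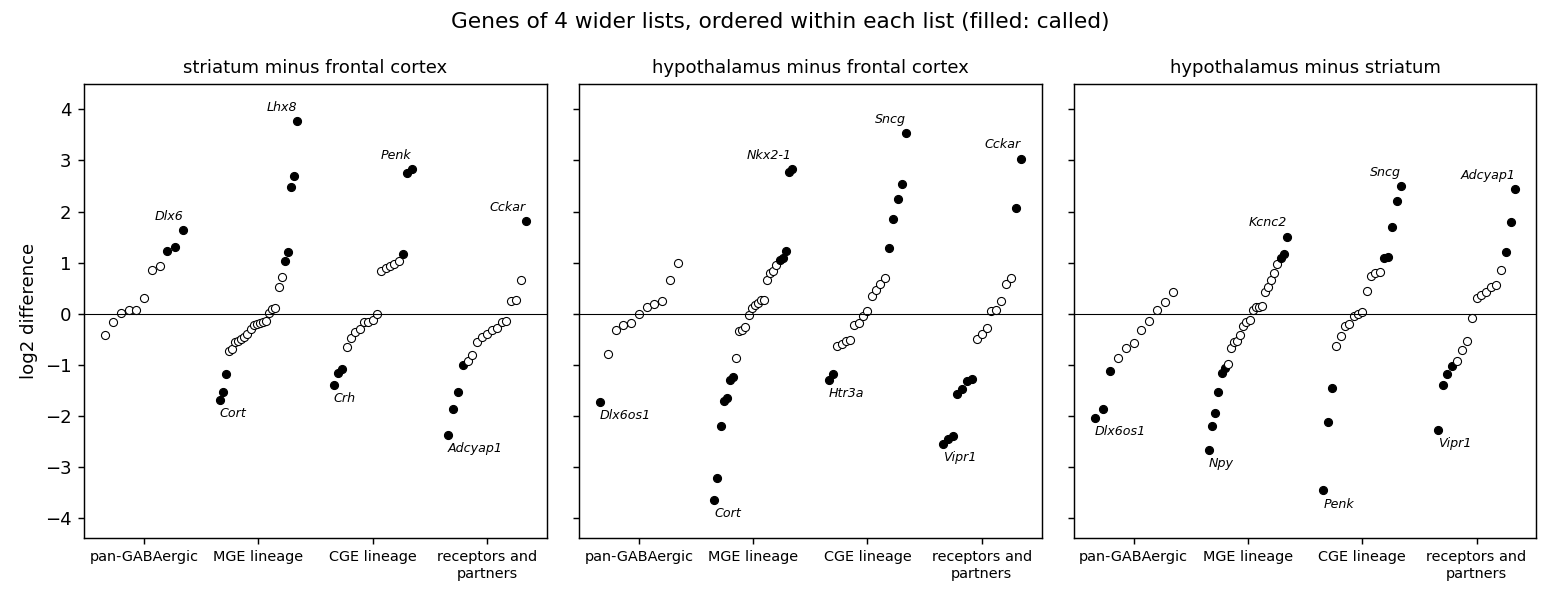
Log2 differences between regions (vertical axis) for the genes of 4 wider lists, ordered within each list; each point is an entry, filled where called. The largest called differences of each list are named, among them Penk at 2.83 and Cort at -1.69 for striatum minus frontal cortex.

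The receptors and partners of the members, 16 genes with 17 entries, were counted in the same way, against the same shares and medians of all entries. For ST minus FC 1 was higher and 4 lower (median -0.40), for HT minus FC 2 were higher and 7 lower (median -0.40), and for HT minus ST 3 were higher and 4 lower (median 0.31). Among somatostatin receptors, Sstr3, which sits on neuronal cilia, was lower in ST (-1.86 ± 0.25) and HT (-1.30 ± 0.22) than in FC, and Sstr2 was lower in HT than in FC (-1.27 ± 0.23). Sstr1, Sstr4 and Sstr5 were not called, with differences between -0.92 and 0.52. The receptors for vasoactive intestinal peptide split: Vipr1 was lower in HT than in FC (-2.54 ± 0.12) and ST (-2.26 ± 0.13), whereas Vipr2, the receptor of the suprachiasmatic nucleus, was higher in HT than in FC (2.07 ± 0.35) and ST (1.80 ± 0.37). Adcyap1, which encodes the related peptide PACAP, was lower in ST than in FC (-2.37 ± 0.38) and higher in HT than in ST (2.44 ± 0.35), and its receptor Adcyap1r1 was not called (-0.15 ± 0.10 for ST minus FC). The cholecystokinin receptors split too. Cckbr, the main receptor of the brain, was lower in ST (-1.52 ± 0.21) and HT (-2.44 ± 0.19) than in FC. Cckar was not well above background on any FC array, and was at least 2.62-fold higher in ST, where it was well above background on 5 of 8 arrays, and at least 6.20-fold higher in HT, the bound being the group's mean against the lowest signal well above background on each dim array. Cckar was also called higher in HT than in ST, with no size given since it was dim on 3 of the 8 ST arrays. For reelin, the adaptor Dab1 was lower in HT than in FC in both of its entries (-1.57 ± 0.10 and -1.48 ± 0.06) and than in ST (-1.17 ± 0.10 and -1.02 ± 0.06), the direction of Reln itself, while the receptors Vldlr and Lrp8 were not called, with differences between -0.81 and 0.66. Of the partners of LIM factors, Lmo4 was lower in ST than in FC (-1.004 ± 0.11), in HT than in FC (-2.39 ± 0.09) and in HT than in ST (-1.39 ± 0.10), and Ldb1 was not called, with differences between -0.54 and 0.26.

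The entries most like each member over the 23 arrays were found by Pearson's r among 21465 entries, with no p, since the arrays share regions, slides and mice. For Pvalb they were Esrra (r = 0.722), Ppp1r3a (0.715) and Amd2 (0.693), and for Lhx6 Plcxd1 (0.803), Gm9856 (0.789) and Cacna1h (0.785), the weakest likenesses. Calb2 was most like Ctxn3 (0.978), A230065H16Rik (0.970) and Kcnip1 (0.965). Sst was most like Npy (0.946), a peptide that many Sst cells also make, 4933412E12Rik (0.940) and Nrgn (0.937). Vip was most like Prdm8 (0.967), Nov (0.964) and Stard8 (0.955). Cck was most like Olfm1 (0.966), Mfsd4 (0.961) and LOC100505195 (0.960), and Reln was most like Usp3 (0.964), Mchr1 (0.963) and Nup93 (0.960). Npy averaged 13.28 in FC, 12.80 in ST and 10.09 in HT, in the order of Sst.

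Diet left the members without a call in any region. For CM minus SC the thresholds were those of the region comparisons in FC and ST; in the HT they were 1.5-fold and, for the adjusted p, 0.05. In the FC, limma called 0 of 7 members, where 2.94% of all entries were called (2.66% higher and 0.28% lower), and 2 members had an unadjusted p under 0.05, Calb2 and Reln, as did 40% of all entries. Reln in the FC was 7.12 to 8.19 in the SC mice and 6.63 to 7.24 in the CM mice. The CM arrays of O54 and O56 were below every SC array, and that of O58 lay within the SC range. The difference was -0.68 ± 0.18 (adjusted p = 0.00992, 1.60-fold), under the 2-fold threshold, and it was the only member difference with an adjusted p under 0.05, as were 28.6% of all entries. Without the FC and ST arrays of L54, a choice made after the data had been seen, it was -0.48 ± 0.18 (adjusted p = 0.0704), and with the slide as a block -0.18 ± 0.38 (adjusted p = 0.98). The FC arrays with the lowest Reln, those of O56, O54 and L52, were also those with the lowest striatum markers (means of 9.10, 8.92 and 8.79), and the highest, that of L54, had the high olfactory bulb markers. Slide, number of spots well above background and diet cannot be told apart within the FC.

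Calb2 in the FC was below every SC array on all 3 CM arrays, with a difference of -1.29 ± 0.51 (adjusted p = 0.0634). Without the FC array of L56 it was -1.82 (adjusted p = 0.0165), without the L54 arrays -0.55 ± 0.40, and with the slide as a block it changed sign, to 0.67 ± 1.06. Lhx6 in the FC was above every SC array on all 3 CM arrays, with a difference of 0.35 ± 0.22 (adjusted p = 0.244). For the peptides the differences were 0.12 ± 0.23 (Sst), 0.57 ± 0.54 (Vip) and 0.19 ± 0.35 (Cck), and for Pvalb 0.16 ± 0.33. The 95% interval for Vip ran from -0.56 to 1.70, so that a 2-fold difference in its level lay within it. With the slide as a block, Sst, Cck and Pvalb changed sign, to -0.51 ± 0.48, -0.80 ± 0.72 and -0.28 ± 0.69.

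In the ST, limma called 0 of 7 members, where 0.602% of all entries were called (0.00319% higher and 0.599% lower). An adjusted p under 0.05 alone was reached by 0 members (9.82% of all entries), and an unadjusted p under 0.05 by 0 (25.5%). The SC and CM arrays overlapped for every member. The largest difference was that of Pvalb, at -0.62 ± 0.37 (adjusted p = 0.299). It was -0.32 without the ST array of O56 and -0.80 without that of O58. For Pvalb the SC arrays were 12.52, 12.85, 12.96 and 12.51 in L52, L54, L56 and L58, and the CM arrays 12.48, 12.22, 11.58 and 12.90 in O52, O54, O56 and O58. All CM arrays but that of O58 were below the SC arrays. The other differences lay between -0.25 (Lhx6) and 0.11 (Reln). Vip and Cck, at -0.24 ± 0.60 and -0.03 ± 0.39, were spread within each diet over the range of the cortex markers described above, and they moved either way with the array left out: without the L54 arrays they were 0.35 ± 0.52 and 0.52 ± 0.31, and without the ST array of L56 -1.33 and -1.03. Within slide 1, which held the 4 CM arrays and the SC array of L52, CM minus SC was -0.23 for Pvalb, 0.25 for Vip, 0.22 for Cck, 0.23 for Sst and 0.26 for Lhx6. For Calb2 it was -1.60 and for Reln -0.26, both with no overlap. No overlap means here only that 1 SC array lay outside the range of the 4 CM arrays. The share of all entries that did so is not given. That SC array is the one with high hypothalamus markers.

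In the HT, limma called 0 of 7 members, where 0.178% of all entries were called (0.0127% higher and 0.166% lower) and 0.43% had an adjusted p under 0.05 alone. Of the members, 1 had an unadjusted p under 0.05, Lhx6, against 13.2% of all entries. Lhx6 was 10.32 to 11.25 in the SC mice and 10.05 to 10.69 in the CM mice, with overlap. Its difference was -0.50 ± 0.18 (adjusted p = 0.222), and it was -0.65 without the HT array of L52 and -0.28 without that of L56. Within slide 2, which held the 4 CM arrays and the SC array of L58, it was -0.89. Vip had the widest spread among the SC arrays, from 6.08 to 9.05, and a difference of -0.48 ± 0.45 (adjusted p = 0.715), which was -0.08 ± 0.38 without the 5 arrays, -1.19 ± 0.91 with the slide as a block, -0.90 without the HT array of L54 and 0.09 without that of L56. Within slide 2 it was -1.96, with no overlap. The remaining differences lay between -0.27 (Sst) and 0.11 (Cck). Within slide 2 Cck was 1.06, Pvalb 0.87, Calb2 -0.64 and Reln -0.33, all with no overlap, as was Lhx6, whereas Sst (-0.48) overlapped. For each of these members, Vip included, no overlap means only that 1 SC array lay outside the range of the 4 CM arrays. The share of all entries that did so is not given. The only SC array there, that of L58, is the one with the lowest thalamus markers. The wider lists had 0 called entries in CM minus SC in any of the 3 regions. In the FC an adjusted p under 0.05 alone was reached by 3 of 11 general GABA entries (list median -0.51 against -0.04 over all entries), by 4 of 26 medial, 0 of 19 caudal and 3 of 17 receptor and partner entries, where 28.6% of all entries reached it. The ST had 2 such entries, both receptors, Sstr4 and Sstr5, and the HT had 0. In the FC, the mean of the striatum markers was 8.79 to 10.62 on the SC arrays and 8.92 to 10.46 on the CM arrays. The SC array of L54 there had the high olfactory bulb markers. The part of these tissues in the values of the lists was not tested.

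Whether diet acted differently between regions was tested by the difference of the CM minus SC differences, called at an adjusted p under 0.05. Between ST and FC, 1 of 7 members was called, Reln, at 0.79 ± 0.28 (adjusted p = 0.0393), where 30.1% of all entries were called (14.2% higher and 16% lower) and 41.4% had an unadjusted p under 0.05. The difference was 0.11 ± 0.20 in the ST and -0.68 ± 0.18 in the FC. Between HT and FC, 1 of 7 was called, Lhx6, at -0.85 ± 0.29 (adjusted p = 0.0449), where 20% of all entries were called (7.66% higher and 12.3% lower), from -0.50 ± 0.18 in the HT and 0.35 ± 0.22 in the FC. An unadjusted p under 0.05 was reached there by Lhx6 and Reln, 2 of 7, against 34% of all entries. Between HT and ST, limma called 0 of 7, as of all entries (0%), and 0 members had an unadjusted p under 0.05, against 14.8% of all entries. Each count of 1 in 7 is a smaller share than that of all entries. Reln stayed called in 15 of 23 fits that left out 1 array, and Lhx6 in 8 of 23. Of the wider lists, 1 of 11 general GABA, 2 of 26 medial, 1 of 19 caudal and 2 of 17 receptor and partner entries were called between ST and FC. Of all entries, 30.1% were called there. The called entries were Slc32a1 (0.90 ± 0.21), Sox6 (0.83 ± 0.23), Kcnc1 (-1.03 ± 0.26, 1 of 2 entries), Chrna2 (-0.88 ± 0.32), Sstr4 (-1.54 ± 0.21) and Sstr5 (-1.46 ± 0.26). Between HT and FC, 0, 1, 0 and 2 entries of these lists were called, where 20% of all entries were. They were Sox6 (0.57 ± 0.20), Sstr4 (-1.08 ± 0.19) and Vipr1 (-0.81 ± 0.24), and between HT and ST there were 0. Values with the slide as a block are not given for these entries. With the slide as a block, Reln was at -0.08 ± 0.53 (adjusted p = 0.9999) and Lhx6 at -0.77 ± 0.74 (adjusted p = 0.9997). The SE thus rose from 0.28 to 0.53 for Reln and from 0.29 to 0.74 for Lhx6. Without the 5 arrays Reln was at 0.54 ± 0.34 (adjusted p = 0.293) and Lhx6 at -0.66 ± 0.32 (adjusted p = 0.171).

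**Figure D5:**
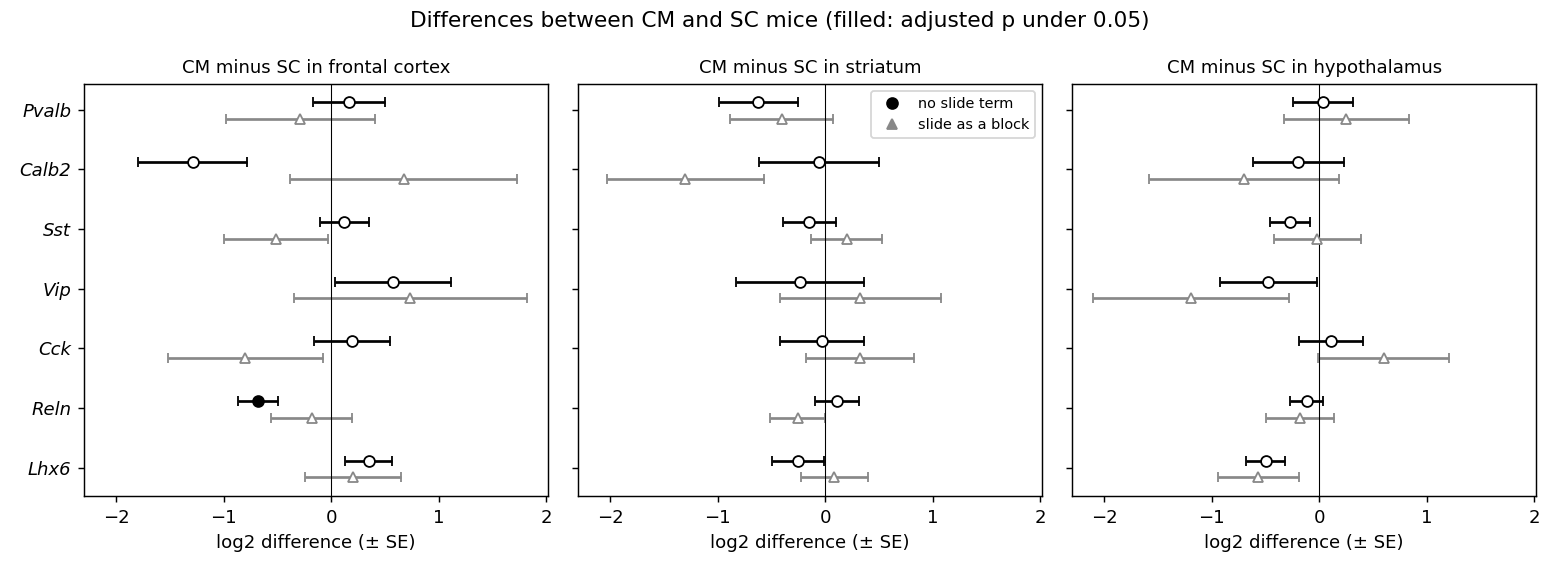
Log2 differences between CM and SC mice for the 7 members in each region (horizontal axis, error bars 1 SE), from the model with no slide term (circles) and with the slide as a block (triangles); filled symbols have an adjusted p under 0.05. Reln in the frontal cortex, at -0.68, is the only filled symbol.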

How the data were processed

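Per the file headers, the authors scanned one-color Agilent mouse arrays, and Feature Extraction turned the images into spot intensities, which were deposited per array. The deposited log2 values were made by the authors with background correction, quantile normalization, a filter on dim probes and averaging by transcript identifier. These steps were rebuilt from the median spot intensities and gave the same 31395 entries, with a largest difference from the deposited table of 5e-09. The files were read with the R package data.table (version 1.17.8) in R 4.3.3. The fit used limma 3.58.1 with statmod 1.5.0: means of 6 groups, array weights, the mouse as a random block (correlation -0.0398) and Benjamini-Hochberg adjustment over all entries. The fit was also tested on simulated data. The same mouse gave the tissues of different regions, a pairing that rests on the sample labels. Over 22 pairs of arrays of 1 mouse the median correlation of residuals was 0.0236 (-0.486 to 0.131). Over 132 pairs with another number and another region it was 0.00438 (-0.242 to 0.334). Members and lists were chosen with earlier results of these data known. Of each wider list, the called entry with the largest difference in each direction is named, as are all receptors and partners; other genes were named after their values were seen. Marker lists of frontal cortex, striatum, hypothalamus, thalamus, suprachiasmatic nucleus, olfactory bulb, choroid plexus, pituitary and red blood cells were read for neighboring tissue. Lists of pallidum and septum, oligodendrocytes, astrocytes, microglia and vessels were read as well. Alternatives changed the slide, mouse and weight terms, background correction, spot signal, normalization, filter, averaging, thresholds and arrays fitted.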

Additional observations from a re-analysis of the deposited data

Results flagged for a closer look

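Each member was examined in each group of 4 arrays, which gave 35 combinations that share arrays. In 8 of the 35, 1 array lay farther from the rest of its group than chance gives in about 1 in 20. These were Sst in the FC of the SC mouse L54 (13.67, low), Vip in the FC of the SC mouse L52 (11.70, high), and Lhx6 in the ST of the CM mouse O54 (10.57, low). In the ST of the CM mouse O58, Vip (6.73) and Cck (14.415) were both low. Cck was low in the HT of the SC mouse L58 (15.25), and Reln was low in the ST of the CM mouse O56 (7.88) and high in the HT of the CM mouse O52 (6.14). The test of whether the difference between CM and SC mice itself differed between regions called Reln (0.79, ST against FC, where 30.1% of all entries were called) and Lhx6 (-0.85, HT against FC, 20%). Both calls were lost with the slide as a block, with no array weights and without the 5 arrays. With no array weights the differences stayed about as large, at 0.72 (Reln) and -0.82 (Lhx6). They were -0.08 and -0.77 with the slide as a block, and 0.54 and -0.66 without the 5 arrays. Whether these losses belong to the members or to the whole comparison was not tested.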

How the results depend on the processing

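The 12 results called were refitted 537 times in all: 496 refits kept the call and direction, 40 lost the call and 1 changed the direction. That 1 was Reln in the comparison of diet effects between ST and FC, at -0.077 with the slide as a block. For ST minus FC, the calls of Vip and Cck were lost on the SC arrays alone, at differences of -2.45 and -1.78. On the CM arrays alone, where region and slide cannot be told apart, Reln was called as well (1.16). Vip in HT minus ST was also called on the CM arrays alone (-1.14). The shares of all entries called in these smaller fits are not given. For HT minus ST, 5 members were called at an adjusted p under 0.05 with no fold threshold (51.4% of all entries), and for CM minus SC in the FC, 1 (28.6%). For the diet effects of ST and FC, the call of Reln (0.79) was lost with the slide as a fixed (-0.08) or random block (0.56). A block of the shared animal number (0.69, adjusted p = 0.0617) or no array weights (0.72) also ended it. So did no filter on dim probes (0.78) or only the arrays compared (0.78). It was lost too with the FC and ST arrays of L54 left out (0.52) or the 5 arrays left out (0.54). For HT and FC, the call of Lhx6 (-0.85) was lost with the slide as a fixed (-0.77) or random block (-0.89). The difference stayed about as large in both, while the adjusted p in limma rose to 0.9997 and 0.267. No array weights (-0.82) or no filter on dim probes (-0.84) also ended the call, as did leaving out the same arrays (-0.75 and -0.66). On its own, 1 of the 2 Lhx6 probes did not carry the call (-0.71, adjusted p = 0.276). The shares of all entries called in these refits are not given. Whether the losses belong to Reln and Lhx6 or to the whole comparison was not tested. Leaving out each array in turn gave counts from 0 to 1 in both, with Reln (ST and FC) called in 15 of 23 fits and Lhx6 (HT and FC) in 8 of 23. The shares of all entries called ran from 25.8% to 34.5% for ST and FC and from 12.9% to 25.1% for HT and FC. Without the FC array of O58, Lhx6 was lost for HT and FC, and Reln was called there (0.71, adjusted p = 0.0234 in limma). The count for HT minus ST went from 3 to 4 (6.22% to 6.81% of all entries), and no other count moved. Reln in HT minus FC fell short of 2-fold with an offset of 50 (-0.85). For the animal number that SC and CM mice share, 11 pairs of arrays of 1 region had a median correlation of -0.0637 (-0.321 to 0.136). Over 33 pairs of 1 region with different numbers and diets it was 0.0351 (-0.313 to 0.367). This cannot decide whether the number is a pairing, since arrays of 1 mouse had a median of only 0.0236. With the mouse as a fixed block, all calls between regions remained. The cause of these changes was not tested.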
